A study of Homo sapiens with 48 samples.

Results

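The integrin and laminin genes expressed in pancreatic cancer cells selected for resistance to Talazoparib were examined by RNAseq. They are the 38 genes of the deposited PSN1 table whose symbol begins with ITGA, or is ITGB, LAMA, LAMB or LAMC followed by a number, out of 20241 genes. They comprise 18 integrin alpha chains, 8 integrin beta chains and 12 laminin chains. Laminins are large trimers of an alpha, a beta and a gamma chain that polymerise into the basement membrane, the sheet of matrix on which epithelial cells rest. Integrins are transmembrane receptors made of an alpha and a beta chain. Each pair binds its own set of matrix proteins, such as laminin, collagen, fibronectin or vitronectin, and connects them to the cytoskeleton. In the exocrine pancreas the ducts lie on a laminin-rich basement membrane, and pancreatic cancers are known for a dense collagen matrix and for tumor cells that leave that membrane.

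PSN1, an established human pancreatic cancer cell line, was profiled in 3 groups of 3 libraries. The parental cells were wild type and untreated. TalaR-M cells had acquired resistance to Talazoparib, a PARP inhibitor, over 4 months of selection and were kept in 50 nM of the drug. TalaR-DF cells were such selected cells grown without drug afterwards. The paper reports that PSN1 cells of this kind regained nearly the parental sensitivity to Talazoparib after drug withdrawal. The word resistant therefore names both groups by their selection history below, and a link between gene levels and drug sensitivity was not tested. All were grown in RPMI1640 with serum. Parental against TalaR-M cells addresses which genes differed in resistant cells under the drug. TalaR-DF against parental cells addresses which differences were present after drug removal. TalaR-M against TalaR-DF cells addresses what differed between the selected cultures with and without drug. All groups come from 1 cell line, and the sources used here do not say whether the resistant cells were a pool or a clone. The labels do not state whether the 3 replicates of a group came from separate cultures, so the p-values below measure the spread between these libraries, which may be technical. In such bulk libraries, fewer cells that express a gene and less RNA per cell cannot be told apart.

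Values are given as log2 CPM, the log2 of the reads of a gene scaled to the size of its library (CPM), where 0 stands for at most 1 CPM. The libraries held 8387755 to 14973847 reads on genes above 1 CPM, and 1 CPM corresponded to 6.97 to 14.54 reads. Of the pancreatic ductal markers, 7 of 8 were detected, keratins KRT7, KRT8, KRT18 and KRT19 among them, and CDH1, which encodes E-cadherin, was at 0 in all 9 libraries. The summed level of that list was 1199 to 1261 CPM in parental, 1782 to 5829 in TalaR-M and 1017 to 1153 in TalaR-DF libraries. KRT8, KRT18, KRT19 and EPCAM stood above all parental libraries in each TalaR-M library, and KRT7 in replicates 1 and 2. SOX9 was lower, at 6.30, 5.24 and 6.20 log2 CPM in TalaR-M against 6.78 to 6.88 in parental libraries. MUC1 stood at 2.58, 4.19 and 2.87 against 3.46 to 3.52. By qPCR the paper reports lower KRT8 and KRT18 mRNA in TalaR cells, and this disagreement was not tested. TalaR-M replicate 2 stood apart from the other libraries. Its correlation with the other TalaR-M libraries was 0.78, against 0.99 between those, over 10512 genes. It was also the shallowest library and had the highest summed ductal marker level, although its SOX9 level was the lowest of all libraries. Transcript length and GC content accounted for 47.8% of its deviation across genes, against 4.54% to 24.7% in the other libraries. Compared with the mean of TalaR-M replicates 1 and 3, the tested integrin and laminin genes differed in replicate 2 by a median of -1.10 log2 units, against -0.31 over all tested genes. These genes have long transcripts, with a median of 5816 bases against 3430. ITGB1 deviated most, by -3.85, although its transcript, at 3735 bases, is near the median of all tested genes. ITGB3 (-3.44) and ITGA2 (-2.83) followed, while ITGAE was higher by 1.84. The calls on TalaR-M cells are therefore given with all libraries and without TalaR-M replicate 2.

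**Figure D1:**
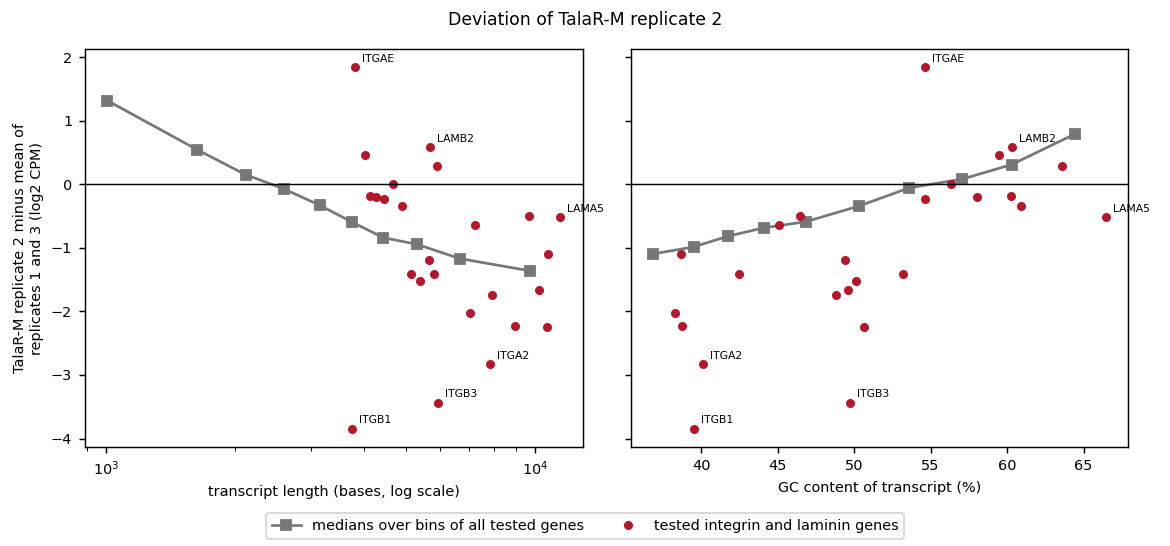
TalaR-M replicate 2 minus the average of the other TalaR-M libraries (log2 CPM, vertical axes) against transcript length (left, bases, log scale) and GC content (right, %), with each red point a tested integrin or laminin gene and the grey squares medians over bins of all tested genes by length or GC content. Longer and GC-poor transcripts were lower in this library, and ITGB1 (-3.85), ITGB3 (-3.44) and ITGA2 (-2.83) lay below the grey line.

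Of the 38 genes, 25 were above 1 CPM in at least 3 libraries and were tested, namely 11 alpha chains, 5 beta chains and 9 laminin chains. In all 9 libraries 12 genes were at 0. These were the integrin chains of leukocytes ITGA4, ITGAD, ITGAL, ITGAM, ITGB2 and ITGB7, the matrix receptor chains ITGA8, ITGA9 and ITGB6, and the laminin chains LAMA1, LAMB4 and LAMC3. The remaining gene, ITGA2B of the platelet fibrinogen receptor, was above 1 CPM in TalaR-M replicates 2 and 3 only, at 0.34 and 0.10 log2 CPM, or 9 and 14 reads. The tested genes ranged from ITGAX and LAMA2, at most 1.52 and 1.54 log2 CPM, to LAMB1 and LAMC1, near 10 in parental cells.

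**Figure D2:**
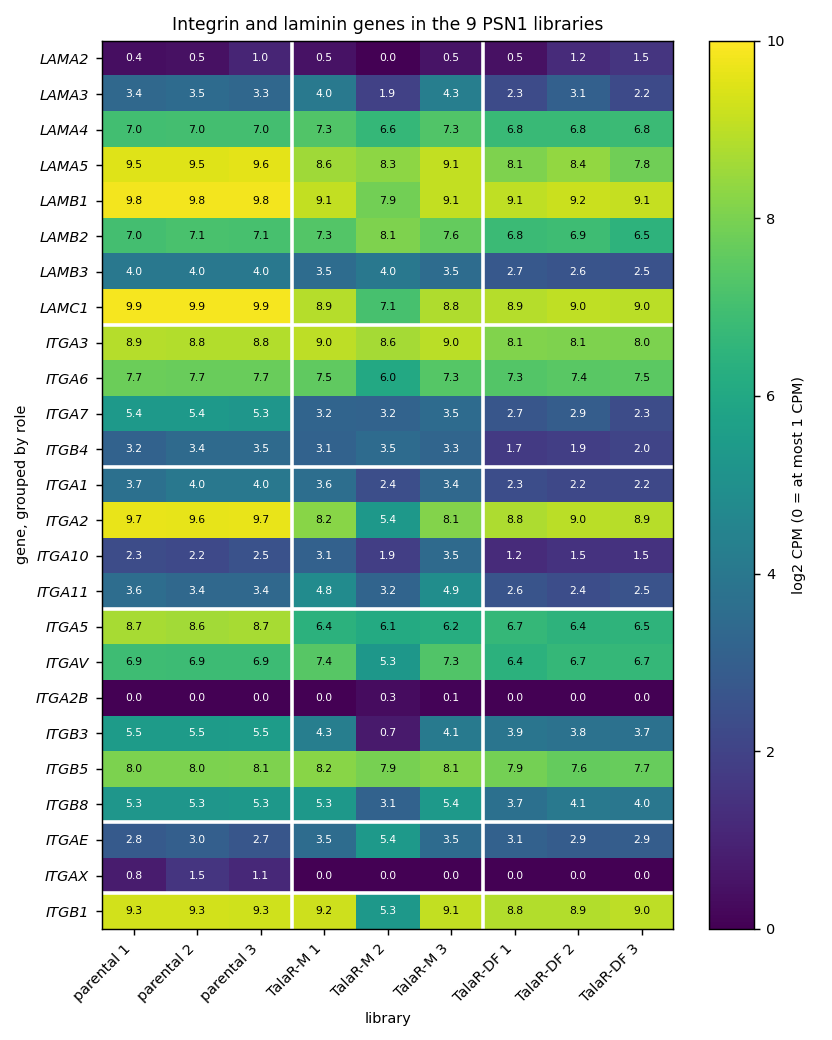
Level of the detected integrin and laminin genes (rows, 1 not shown, grouped as laminin chains, laminin-binding, collagen-binding, fibronectin- and vitronectin-binding, leukocyte-type chains and ITGB1) in the 9 libraries (columns, grouped as parental, TalaR-M and TalaR-DF), with color and number giving log2 CPM. LAMA5, LAMB1, LAMC1 and ITGA5 are brighter in the parental columns, and TalaR-M replicate 2 is darker for ITGB1, ITGA2 and ITGB3.

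The integrin and laminin genes called differentially expressed against parental cells were lower in the resistant cells with all libraries, and ITGA11 was called higher in TalaR-M cells without TalaR-M replicate 2. To be called, a gene needed a p under 0.05 in limma, adjusted over all 12471 tested genes by the Benjamini-Hochberg method, and a log2 difference of 1 or more in either direction. In TalaR-M against parental cells, 6 of the 25 genes were called lower (ITGA2, ITGA5, ITGA7, ITGAX, LAMB1 and LAMC1), against 7.72% of all tested genes, and 0 were called higher, against 5.53%. Without TalaR-M replicate 2, 6 were lower (7.07% of all) and 1 was higher (6.78% of all): ITGB3 and ITGA11 joined and LAMB1 left. In TalaR-DF against parental cells, 7 were lower (ITGA1, ITGA5, ITGA7, ITGAX, ITGB4, LAMA5 and LAMB3), against 7.49% of all, and 0 higher, against 2.25%. Without TalaR-M replicate 2, whose spread enters this fit too, 10 were lower (8.63% of all), with ITGB3 and ITGB8 among those that joined, and 0 higher (2.73% of all). Both comparisons share the parental libraries. ITGAX, counted in each, was tested only because of its values in those libraries and could only be called lower.

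In TalaR-M against TalaR-DF cells, 4 genes were higher (ITGA10, ITGA11, ITGB4 and LAMB3), against 5.29% of all, and 0 lower, against 1.64%. Without TalaR-M replicate 2, 6 were higher (ITGA1, ITGA10, ITGA11, ITGB4, ITGB8 and LAMA3), against 6.96%, and 0 lower, against 1.4%. The 0 counts hold for limma, the tool used. At an unadjusted p under 0.05 without the fold threshold, 2 genes were higher in TalaR-M and 0 in TalaR-DF than in parental cells, and 2 were lower in TalaR-M than in TalaR-DF cells. Over the 25 genes the median log2 difference was -0.66, -0.91 and 0.35 in the 3 comparisons, in the order given, against -0.09, 0.01 and -0.09 over all tested genes. Without TalaR-M replicate 2 these medians were -0.16, -0.91 and 0.72, against 0.01, 0.01 and -0.02. The count of calls in TalaR-M against parental cells was 2 without parental replicate 2, and 3 without any of parental replicates 1 and 3 and TalaR-DF replicates 1 and 3. In TalaR-M against TalaR-DF cells it was 2 without any 1 parental library, TalaR-M replicate 3, TalaR-DF replicate 1 or TalaR-DF replicate 3.

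**Figure D3:**
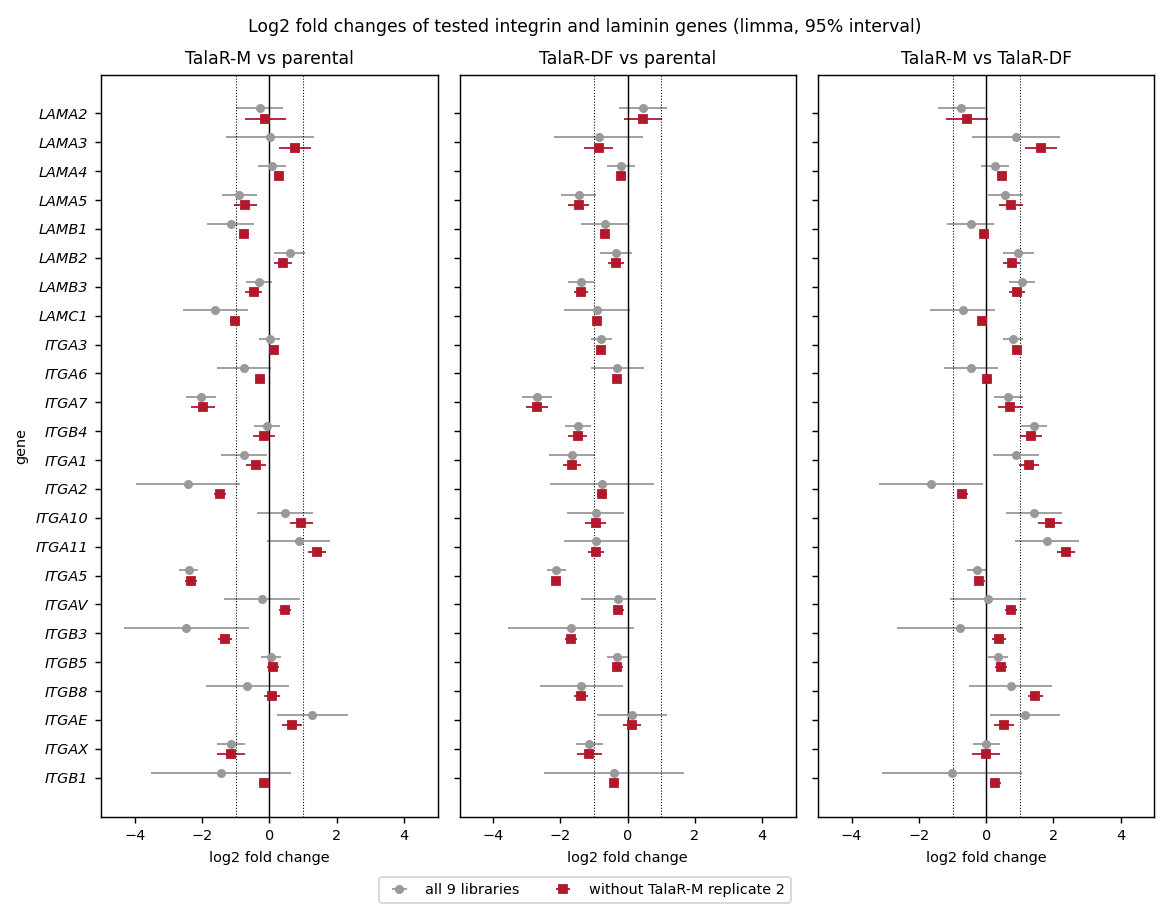
Log2 fold change (horizontal axes) of the tested integrin and laminin genes (rows, 1 not shown) in the 3 comparisons, with all libraries (grey circles) and without TalaR-M replicate 2 (red squares). Bars are 95% intervals from limma, and dotted lines mark the threshold, a log2 fold change of 1 in either direction. ITGA5 and ITGA7 sat left of the threshold in both comparisons with parental cells, and the intervals of ITGB1, ITGB3 and ITGA2 narrowed when the library was left out.

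The most abundant laminin chains of parental cells, per kb of transcript, were LAMA5, LAMB1 and LAMC1, which assemble into the main laminin trimer of adult epithelial basement membranes, and all 3 stood below their parental levels in each resistant library. LAMA5 (chr20:62307955-62367312, minus strand) stood at 9.53, 9.53 and 9.60 log2 CPM in parental libraries, 8.57, 8.32 and 9.10 in TalaR-M and 8.06, 8.39 and 7.83 in TalaR-DF. No resistant library reached the parental range, and the resistant groups overlapped each other. Its log2 fold change was -1.46 (SE 0.22, adjusted p = 0.00272) in TalaR-DF cells, which was called, and -0.89 (SE 0.22, adjusted p = 0.0235) in TalaR-M cells, or -0.71 (SE 0.16, adjusted p = 0.00223) without replicate 2, under the fold threshold in both fits. LAMB1 (chr7:107923799-108003213, minus strand) stood at 9.80, 9.83 and 9.82 in parental, 9.07, 7.87 and 9.07 in TalaR-M and 9.06, 9.20 and 9.13 in TalaR-DF libraries. All 6 resistant libraries lay below the parental range, with TalaR-M replicate 2 the lowest. The call in TalaR-M cells, -1.15 (SE 0.30, adjusted p = 0.0273), was lost without that library, -0.75 (SE 0.07, adjusted p = 1.92e-06), and without any parental or TalaR-DF library, with an adjusted p of up to 0.088. In TalaR-DF cells LAMB1 was not called, at -0.69 (SE 0.30, adjusted p = 0.172). In the fit without TalaR-M replicate 2 it was at -0.69 (SE 0.06, adjusted p = 1.38e-06), under the fold threshold.

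LAMC1 (chr1:183023420-183145592, plus strand), whose gamma chain is shared by most laminins, stood at 9.87, 9.87 and 9.86 log2 CPM in parental, 8.88, 7.10 and 8.81 in TalaR-M and 8.88, 9.03 and 8.95 in TalaR-DF libraries. Its parental libraries also lay above all the resistant ones. It fell in TalaR-M cells, -1.61 (SE 0.42, adjusted p = 0.0272), and remained just past the threshold without replicate 2, -1.03 (SE 0.07, adjusted p = 1.35e-07). Without any 1 parental library or without TalaR-DF replicate 1 or 3, the adjusted p rose to as much as 0.0868. In TalaR-DF cells the difference was -0.91 (SE 0.42, adjusted p = 0.197), or -0.91 (SE 0.06, adjusted p = 1.37e-07) in the fit without TalaR-M replicate 2, under the fold threshold. TalaR-M and TalaR-DF cells differed in LAMB1 and LAMC1 by -0.06 and -0.11 without TalaR-M replicate 2, with 95% intervals of -0.20 to 0.09 and -0.26 to 0.04.

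The promoters of these 3 chains are shown because the genes stood lower in the same libraries. They are RefSeq sequences of GRCh38.p14 from 250 bases before to 50 bases after the start, 5′ to 3′ on the strand of the gene, at chr20:62367263-62367562 for LAMA5, chr7:108003112-108003411 for LAMB1 and chr1:183023170-183023469 for LAMC1. Capitals mark matches on either strand to the GC box GGGCGG, to CAGGTG, an E-box of the kind bound by SNAI proteins, to the AP-1 site TGANTCA or to TATAAA.
LAMA5: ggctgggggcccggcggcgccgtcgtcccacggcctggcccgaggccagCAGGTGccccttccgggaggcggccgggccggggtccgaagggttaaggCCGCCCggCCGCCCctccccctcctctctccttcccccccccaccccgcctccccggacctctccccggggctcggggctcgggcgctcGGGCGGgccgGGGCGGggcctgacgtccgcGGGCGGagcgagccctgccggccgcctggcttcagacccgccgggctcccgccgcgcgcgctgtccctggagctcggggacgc
LAMB1: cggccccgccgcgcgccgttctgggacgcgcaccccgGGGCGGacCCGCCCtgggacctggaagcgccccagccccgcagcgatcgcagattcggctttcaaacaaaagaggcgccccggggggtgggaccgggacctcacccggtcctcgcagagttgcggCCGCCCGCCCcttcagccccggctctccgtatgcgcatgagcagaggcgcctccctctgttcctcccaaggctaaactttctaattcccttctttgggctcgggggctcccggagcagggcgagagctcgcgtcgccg
LAMC1: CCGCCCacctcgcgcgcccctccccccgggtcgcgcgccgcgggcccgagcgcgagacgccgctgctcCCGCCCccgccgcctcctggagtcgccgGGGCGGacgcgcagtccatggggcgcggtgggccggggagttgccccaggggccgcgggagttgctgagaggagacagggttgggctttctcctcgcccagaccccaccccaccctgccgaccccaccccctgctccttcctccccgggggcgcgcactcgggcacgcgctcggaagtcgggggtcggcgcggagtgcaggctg
LAMA5 holds 5 GC boxes and 1 CAGGTG, LAMB1 holds 4 GC boxes, of which a pair overlap, and LAMC1 holds 3. The windows are 82.7%, 71.0% and 79.0% GC, against a median of 58.7% over all 27305 promoters. GGGCGG occurs in 48.3% of those promoters, CAGGTG in 24.1%, TGANTCA in 9.37% and TATAAA in 14.0%. Among the 19 of the 25 tested genes with a promoter entry, 12, 6, 3 and 2 hold them. These matches describe the letters of the windows only.

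LAMA3 and LAMB3, chains of the epithelial laminin of hemidesmosomes, were less abundant per kb of transcript, and LAMB3 fell in TalaR-DF cells. LAMB3 stood at 3.99, 4.01 and 4.02 log2 CPM in parental, 3.53, 4.00 and 3.54 in TalaR-M and 2.74, 2.61 and 2.51 in TalaR-DF libraries. The TalaR-DF libraries lay below all others, and TalaR-M replicate 2 fell among the parental ones. LAMB3 fell in TalaR-DF against parental cells, -1.39 (SE 0.17, adjusted p = 0.000764), and was higher in TalaR-M than in TalaR-DF cells, 1.07 (SE 0.17, adjusted p = 0.00517). This second call was lost without TalaR-M replicate 2, 0.92 (SE 0.11, adjusted p = 4.85e-05), with array weights and with an added pseudocount of 1 or 8 CPM, and the first with 8 CPM.

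LAMA3 stood at 3.37, 3.50 and 3.34 log2 CPM in parental, 4.04, 1.92 and 4.30 in TalaR-M and 2.29, 3.08 and 2.24 in TalaR-DF libraries. TalaR-M replicates 1 and 3 were above the parental range, whereas replicate 2 was below every other library. TalaR-M cells differed from TalaR-DF cells by 0.88 (SE 0.57, adjusted p = 0.306), and 1.63 (SE 0.22, adjusted p = 8.47e-05) without replicate 2, where it was called. LAMA2, LAMA4 and LAMB2 were not called with all libraries or without TalaR-M replicate 2. LAMA4, the alpha chain of vascular and mesenchymal laminins, ranged from 6.64 to 7.30 log2 CPM. LAMB2, a beta chain of nerve, muscle and kidney basement membranes, ranged from 6.47 to 8.07 with its highest value in TalaR-M replicate 2. LAMB2 differed between TalaR-M and TalaR-DF cells by 0.95 (SE 0.20, adjusted p = 0.0199), or 0.76 (SE 0.12, adjusted p = 0.000274) without that library, and was called without TalaR-M replicate 1, at 1.12, or TalaR-DF replicate 2, at 1.04, and with median ratio scaling, at 1.11. LAMA2, the alpha chain of muscle laminin, was at or near the floor in every library.

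**Figure D4:**
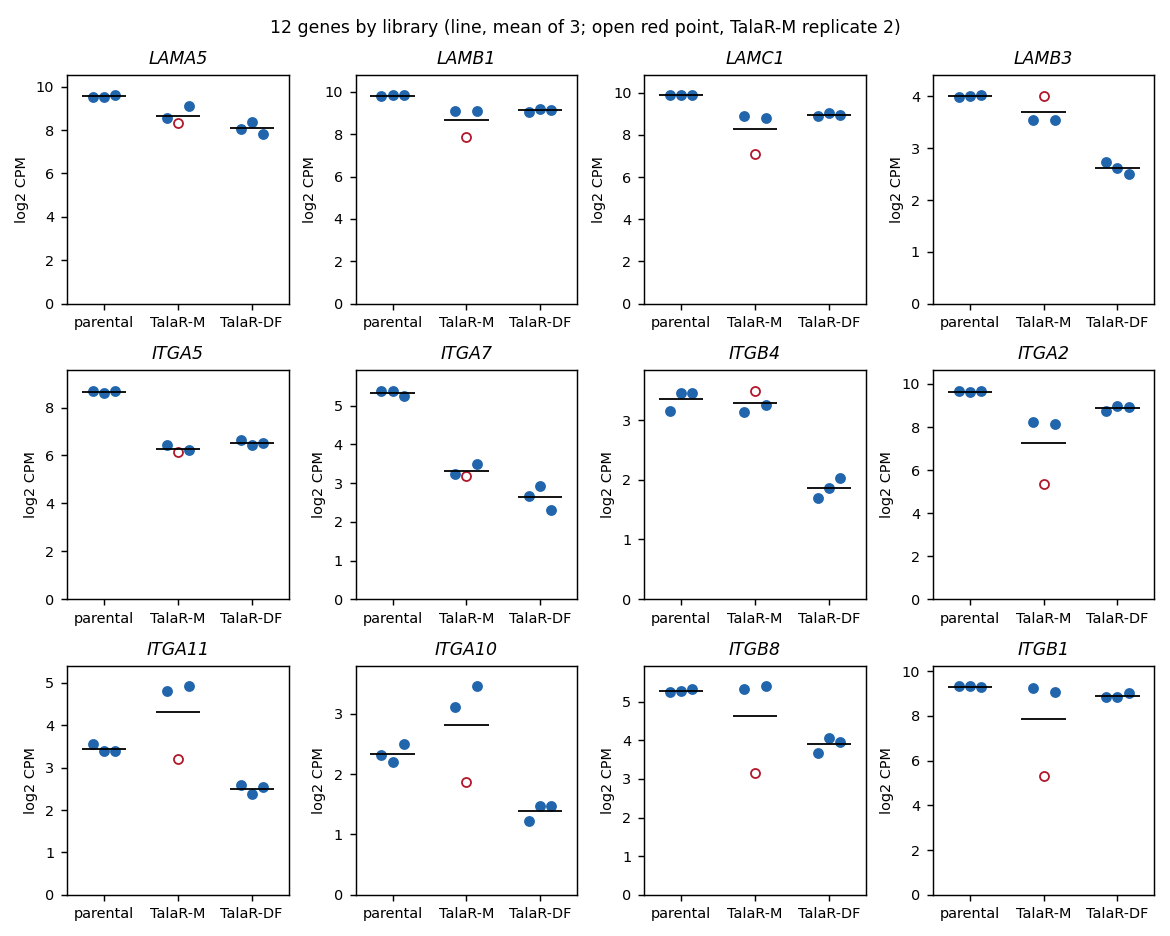
Log2 CPM (vertical axes, from 0) of 12 integrin and laminin genes in parental, TalaR-M and TalaR-DF cells, where each point is a library, the line is the mean of 3 and the open red point is TalaR-M replicate 2. ITGA5 and ITGA7 were lower in all 6 resistant libraries, while ITGB4 and LAMB3 were lower in the TalaR-DF libraries.

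Among the integrins that bind laminin, ITGA7 fell in both resistant groups and ITGB4 in TalaR-DF cells, whereas ITGA3 and ITGA6 were not called. ITGA7 (chr12:55684568-55716404, minus strand), the main laminin receptor chain of muscle, stood at 5.38, 5.37 and 5.26 log2 CPM in parental, 3.23, 3.19 and 3.50 in TalaR-M and 2.68, 2.93 and 2.31 in TalaR-DF libraries. The 3 groups did not overlap. It fell in TalaR-M cells, -2.03 (SE 0.19, adjusted p = 0.000129), also without replicate 2, -1.97 (SE 0.16, adjusted p = 9.97e-07), and in TalaR-DF cells, -2.70 (SE 0.19, adjusted p = 3.26e-05), and neither call was lost when any 1 library was left out. TalaR-M and TalaR-DF cells differed by 0.66 (SE 0.19, adjusted p = 0.0584), and by 0.72 (SE 0.16, adjusted p = 0.00337) without replicate 2, under the fold threshold in both fits. Exons of ITGA7 overlap those of BLOC1S1 and METTL7B on the opposite strand by up to 113 bases.

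ITGB4 (chr17:75721328-75757818, plus strand), the beta chain that pairs with ITGA6 in hemidesmosomes, stood at 3.16, 3.45 and 3.46 log2 CPM in parental, 3.14, 3.49 and 3.25 in TalaR-M and 1.69, 1.86 and 2.04 in TalaR-DF libraries. Parental and TalaR-M libraries overlapped, and the TalaR-DF libraries lay below both. It fell in TalaR-DF against parental cells, -1.49 (SE 0.17, adjusted p = 0.00053), and was higher in TalaR-M than in TalaR-DF cells, 1.43 (SE 0.17, adjusted p = 0.00122), or 1.33 (SE 0.15, adjusted p = 2.18e-05) without replicate 2. Both calls were kept when any 1 library was left out and lost with an added pseudocount of 8 CPM. TalaR-M and parental cells differed by -0.06 (SE 0.17, adjusted p = 0.804), with a 95% interval of -0.45 to 0.33, and by -0.16 (SE 0.15, adjusted p = 0.373) without replicate 2. ITGA3, a laminin receptor chain of epithelia, stood at 8.83 to 8.89 in parental, 8.64 to 9.01 in TalaR-M and 8.03 to 8.11 in TalaR-DF libraries. Its difference in TalaR-DF cells, -0.79 (SE 0.13, adjusted p = 0.00446), was larger than the spread but under the fold threshold, as was that between TalaR-M and TalaR-DF cells, 0.80 (SE 0.13, adjusted p = 0.00707), or 0.91 (SE 0.06, adjusted p = 2.8e-07) without replicate 2. ITGA6 stood at 7.70 to 7.74, 6.03 to 7.54 and 7.33 to 7.49.

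Of the 4 collagen-binding alpha chains, which all pair with ITGB1, ITGA2 fell in TalaR-M cells and ITGA1 in TalaR-DF cells, and ITGA10 and ITGA11 were higher in TalaR-M than in TalaR-DF cells. ITGA2 (chr5:52989340-53094779, plus strand), the collagen receptor chain of epithelia and platelets, was the most abundant of them per kb of transcript. It stood at 9.68, 9.62 and 9.65 log2 CPM in parental, 8.23, 5.35 and 8.14 in TalaR-M and 8.75, 8.98 and 8.93 in TalaR-DF libraries. The groups did not overlap, and TalaR-M replicate 2 lay far below the other libraries. ITGA2 fell in TalaR-M cells, -2.41 (SE 0.67, adjusted p = 0.0344), and by less but with a smaller error without replicate 2, -1.46 (SE 0.08, adjusted p = 2.03e-08). With replicate 2 in the fit, leaving out any parental or TalaR-DF library ended the call, with an adjusted p of up to 0.104. TalaR-DF cells differed from parental cells by -0.76 (SE 0.67, adjusted p = 0.546), or -0.76 (SE 0.07, adjusted p = 1.9e-06) in the fit without TalaR-M replicate 2, under the fold threshold.

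ITGA1, a collagen receptor chain of mesenchymal cells, lies 30130 bases from ITGA2 on chromosome 5, and stood at 3.70, 3.99 and 3.99 log2 CPM in parental, 3.60, 2.39 and 3.39 in TalaR-M and 2.35, 2.17 and 2.17 in TalaR-DF libraries. The TalaR-DF libraries lay below all the others, replicate 2 of TalaR-M being the nearest. It was called lower in TalaR-DF against parental cells, -1.66 (SE 0.30, adjusted p = 0.00576), whichever library was left out. With an added pseudocount of 8 CPM it was under the fold threshold, at -0.85 (adjusted p = 0.00464). TalaR-M cells differed from TalaR-DF cells by 0.90 (SE 0.30, adjusted p = 0.0923), and 1.27 (SE 0.14, adjusted p = 1.8e-05) without TalaR-M replicate 2, where it was called. Exons of ITGA1 overlap PELO, a translation quality control gene on the same strand, by up to 499 bases. They also overlap the pseudogene RPL17P21 on the same strand by up to 571 bases and ITGA2-AS1 on the opposite strand by up to 1385. The ITGA1 counts are therefore uncertain where reads fall there.

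ITGA11, a fibrillar collagen receptor chain typical of fibroblasts, was called higher than in parental cells in the TalaR-M fit without replicate 2, alone among the 25 genes, as also with array weights, at 1.43, and with the length and GC trend removed, at 1.32. It stood at 3.56, 3.39 and 3.39 log2 CPM in parental, 4.82, 3.21 and 4.92 in TalaR-M and 2.60, 2.37 and 2.55 in TalaR-DF libraries. TalaR-M replicates 1 and 3 lay above, and the TalaR-DF libraries below, all the other libraries. Against parental cells the TalaR-M difference was 0.87 (SE 0.41, adjusted p = 0.16), and 1.42 (SE 0.12, adjusted p = 1.14e-06) without replicate 2. Against TalaR-DF cells it was 1.81 (SE 0.41, adjusted p = 0.0259), and 2.36 (SE 0.12, adjusted p = 3.49e-08) without replicate 2. ITGA10, the cartilage collagen receptor chain, stood at 2.31, 2.20 and 2.51 in parental, 3.12, 1.87 and 3.45 in TalaR-M and 1.23, 1.47 and 1.46 in TalaR-DF libraries. TalaR-M replicates 1 and 3 were again the highest and the TalaR-DF libraries the lowest. ITGA10 was higher in TalaR-M than in TalaR-DF cells, 1.43 (SE 0.37, adjusted p = 0.0406), and 1.90 (SE 0.16, adjusted p = 1.99e-06) without replicate 2. With replicate 2 in the fit, leaving out any other library ended both calls against TalaR-DF cells, with an adjusted p of up to 0.0971 for ITGA11 and 0.136 for ITGA10. The fibroblast and smooth muscle markers, of which ACTA2 and DES were at 0 throughout, summed to 176 to 185 CPM in parental, 26.0 to 51.8 in TalaR-M and 73.9 to 83.1 in TalaR-DF libraries, and their part in these differences was not tested.

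Of the integrins that bind fibronectin and vitronectin, ITGA5 fell most clearly. ITGA5 (chr12:54395261-54419266, minus strand), the alpha chain of the main fibronectin receptor, stood at 8.69, 8.60 and 8.68 log2 CPM in parental, 6.42, 6.13 and 6.24 in TalaR-M and 6.65, 6.45 and 6.50 in TalaR-DF libraries. All 6 resistant libraries lay about 2 log2 units below the parental ones, TalaR-M replicate 2 included. It fell in TalaR-M cells, -2.40 (SE 0.12, adjusted p = 4.63e-06), or 5.26-fold, and in TalaR-DF cells, -2.13 (SE 0.12, adjusted p = 1.2e-05), or 4.36-fold. Without TalaR-M replicate 2 the first value was -2.33 (SE 0.08, adjusted p = 4.3e-10), and no single library left out ended either call. TalaR-M and TalaR-DF cells differed by -0.27 (SE 0.12, adjusted p = 0.186), with a 95% interval of -0.56 to 0.02, and by -0.20 (SE 0.08, adjusted p = 0.0438) without replicate 2, under the fold threshold. FN1, which encodes fibronectin, stood at 12.38 to 12.44 in parental, 9.52 to 12.11 in TalaR-M and 10.69 to 11.08 in TalaR-DF libraries. FN1 was not called with all libraries, at -1.20 (adjusted p = 0.186) in TalaR-M and -1.54 (adjusted p = 0.132) in TalaR-DF cells, and without TalaR-M replicate 2 it was called in TalaR-DF cells (adjusted p = 4.25e-07) but not in TalaR-M cells, at -0.36 (adjusted p = 0.0304). By contrast, the paper reports more FN1 mRNA in TalaR cells by qPCR and stronger fibronectin staining of PSN1 TalaR cells. Here FN1 was below every parental library in each resistant library, and this disagreement was not tested.

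The ITGA5 promoter is shown because this gene had the lowest adjusted p of the 25 in both comparisons with parental cells. It lies at chr12:54419217-54419516 on the minus strand of GRCh38.p14, with the same motifs in capitals.
ITGA5: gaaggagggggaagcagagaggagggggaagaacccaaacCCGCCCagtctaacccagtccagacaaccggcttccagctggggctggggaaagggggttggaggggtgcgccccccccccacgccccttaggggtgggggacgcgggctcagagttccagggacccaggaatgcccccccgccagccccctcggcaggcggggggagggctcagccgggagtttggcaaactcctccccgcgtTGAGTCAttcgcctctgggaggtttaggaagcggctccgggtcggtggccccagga
It holds 1 AP-1 site, which begins at base -6 from the start, and 1 GC box. AP-1 sites occur in the windows of LAMA3 and LAMB3 among the other tested genes with an entry.

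ITGAV, the alpha chain of the vitronectin receptors, pairs with ITGB1, ITGB3, ITGB5, ITGB6 or ITGB8. It stood at 6.89, 6.85 and 6.87 log2 CPM in parental, 7.38, 5.30 and 7.28 in TalaR-M and 6.43, 6.67 and 6.68 in TalaR-DF libraries. TalaR-M replicates 1 and 3 were the highest and replicate 2 the lowest, and the direction against parental cells depended on that library, with -0.22 (SE 0.49, adjusted p = 0.758) with it and 0.46 (SE 0.08, adjusted p = 0.000328) without it. ITGB3, the beta chain of the vitronectin receptor of endothelium and osteoclasts, stood at 5.48, 5.47 and 5.54 in parental, 4.28, 0.74 and 4.06 in TalaR-M and 3.89, 3.79 and 3.74 in TalaR-DF libraries. The parental libraries lay above all the resistant ones. Against parental cells the TalaR-M difference was -2.47 (SE 0.81, adjusted p = 0.0613) with all libraries and -1.32 (SE 0.10, adjusted p = 3.3e-07) without TalaR-M replicate 2. It was also called without TalaR-M replicate 1 or 3, with array weights and with median ratio scaling. The same held for an added pseudocount of 1 or 8 CPM and for removal of the length and GC trend. The adjusted p in limma was at most 0.0486 in these fits. In TalaR-DF cells the difference from parental cells was -1.69 (SE 0.81, adjusted p = 0.217), and -1.69 (SE 0.09, adjusted p = 1.72e-08) in the fit without TalaR-M replicate 2. Both were called there, and the TalaR-DF difference also in a fit of only the 2 groups (adjusted p = 6.93e-06), which holds no TalaR-M library. The endothelial markers, with VWF at 0 throughout, summed to 28.9 to 32.1 CPM in parental, 5.91 to 10.3 in TalaR-M and 2.92 to 3.24 in TalaR-DF libraries, and their part in the ITGB3 difference was not tested. Exons of ITGB3 overlap a gene on the same strand known only by its identifier, ENSG00000259753, by up to 430 bases.

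ITGB8, whose dimer with ITGAV activates latent TGF-beta, stood at 5.25, 5.27 and 5.34 log2 CPM in parental, 5.34, 3.14 and 5.40 in TalaR-M and 3.68, 4.06 and 3.97 in TalaR-DF libraries. TalaR-M replicates 1 and 3 were level with or just above the parental libraries, and TalaR-M replicate 2 was the lowest of all. The TalaR-DF difference from parental cells was -1.38 (SE 0.54, adjusted p = 0.125), and -1.38 (SE 0.10, adjusted p = 2.3e-07) in the fit without TalaR-M replicate 2. Against TalaR-DF cells the TalaR-M difference was 0.72 (SE 0.54, adjusted p = 0.361), and 1.47 (SE 0.11, adjusted p = 8.01e-07) without that library, where both were called. ITGB5, a vitronectin receptor beta chain of epithelial cells, was called in no comparison and stood between 7.64 and 8.21 in every library.

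ITGB1, the shared beta chain of most matrix-binding integrins, was not called in either fit. It stood at 9.32, 9.32 and 9.29 log2 CPM in parental, 9.25, 5.32 and 9.09 in TalaR-M and 8.85, 8.86 and 9.01 in TalaR-DF libraries. TalaR-M replicate 2 stood apart from all the others. The TalaR-M difference from parental cells was -1.43 (SE 0.90, adjusted p = 0.276) with it and -0.14 (SE 0.07, adjusted p = 0.116) without it, where the 95% interval was -0.31 to 0.02. The TalaR-DF difference from parental cells was -0.41 (SE 0.90, adjusted p = 0.847) with all libraries. In the fit without TalaR-M replicate 2 it was -0.41 (SE 0.07, adjusted p = 0.000231), under the fold threshold.

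Of the chains typical of leukocytes, ITGAE was detected in every library, and the others were at or near the floor. ITGAX, the alpha chain of a complement receptor of myeloid and dendritic cells, stood at 0.77, 1.52 and 1.14 log2 CPM in parental libraries, or 24, 39 and 28 reads, and at 0 in all 6 resistant libraries. It thus entered the test through the parental libraries only. Its fold of 2.21 in both comparisons with parental cells is a lower bound, since 0 stands for at most 1 CPM, and the call was lost without parental replicate 2, at -0.95, and with an added pseudocount of 8 CPM. ITGB2, the beta chain with which it pairs, was at 0 in every library. ITGAE, the alpha chain of the E-cadherin receptor of intraepithelial lymphocytes, ranged from 2.69 to 3.03 in parental, 3.50 to 5.36 in TalaR-M and 2.89 to 3.10 in TalaR-DF libraries, with TalaR-M replicate 2 the highest. Its difference in TalaR-M against parental cells was 1.28 (SE 0.45, adjusted p = 0.0766), and 0.67 (SE 0.13, adjusted p = 0.00113) without that library, not called in either fit, but it was called without TalaR-M replicate 1 (adjusted p = 0.0496) or 3 (adjusted p = 0.0497). Its partner ITGB7 was at 0. Exons of ITGAE overlap HASPIN on the opposite strand by up to 427 bases. Of the 10 leukocyte markers, CD53, TYROBP, LCP2, CD48, IKZF1 and PTPN6 were at 0 throughout, and the summed level was 106 to 112 CPM in parental, 40.6 to 68.1 in TalaR-M and 19.7 to 21.9 in TalaR-DF libraries, mostly from LAPTM5. Their part in the ITGAX difference was not tested.

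Levels were compared between chains as CPM per kb of transcript. The alpha chains summed to 368, 354 and 361 CPM per kb in parental, 231, 136 and 217 in TalaR-M and 181, 189 and 187 in TalaR-DF libraries. In parental cells ITGA2, ITGA5 and ITGA3 took similar shares of the alpha chains, at 28.4% ± 0.07, 26.4% ± 0.48 and 26.3% ± 0.36 (SD, n = 3). The share of ITGA5 was 8.73%, 12.2% and 8.22% in TalaR-M and 13.1%, 10.8% and 11.4% in TalaR-DF libraries, below every parental library. ITGA3 instead took 45.7%, 60.2% and 46.6% in TalaR-M libraries and 31.3%, 29.1% and 28.5% in TalaR-DF libraries, and ITGA2 16.7%, 3.84% and 16.5% and 30.5%, 33.9% and 33.3%. ITGA3 was thus the largest alpha chain in every TalaR-M library, at a level of 96.1 ± 12.7 CPM per kb against 94.9 ± 2.18 in parental cells. These shares sum to 100, so that a fall of 1 chain raises the share of the others.

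The beta chains were led by ITGB1, with 69.9% ± 0.57 in parental and 70.8% ± 2.81 in TalaR-DF cells (SD, n = 3). In TalaR-M libraries ITGB1 took 68.2%, 15.5% and 66.9%, and in the second of these ITGB5 was larger, at 79.9%. Among the laminin alpha chains LAMA5 took 77.6% ± 0.46 in parental cells, 58.7%, 66.4% and 67.2% in TalaR-M and 59.4%, 64.4% and 54.7% in TalaR-DF libraries. LAMA4 took 21.0% ± 0.42 in parental, 33.7% ± 4.26 in TalaR-M and 38.6% ± 4.96 in TalaR-DF cells. LAMB1 remained the largest laminin beta chain, at 85.3% ± 0.29 in parental and 83.1% ± 2.01 in TalaR-DF cells, except in TalaR-M replicate 2, where LAMB2 took 50.9%. In TalaR-M replicates 1 and 3 LAMB1 took 75.3% and 71.6%, and LAMB2 22.4% and 26.2%, against 12.6% for LAMB2 in parental cells. The summed laminin alpha chains stood at 83.3, 83.7 and 86.9 CPM per kb in parental, 56.8, 42.1 and 71.5 in TalaR-M and 39.3, 45.7 and 36.5 in TalaR-DF libraries. This total was lower in each resistant library than in each parental library.

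**Figure D5:**
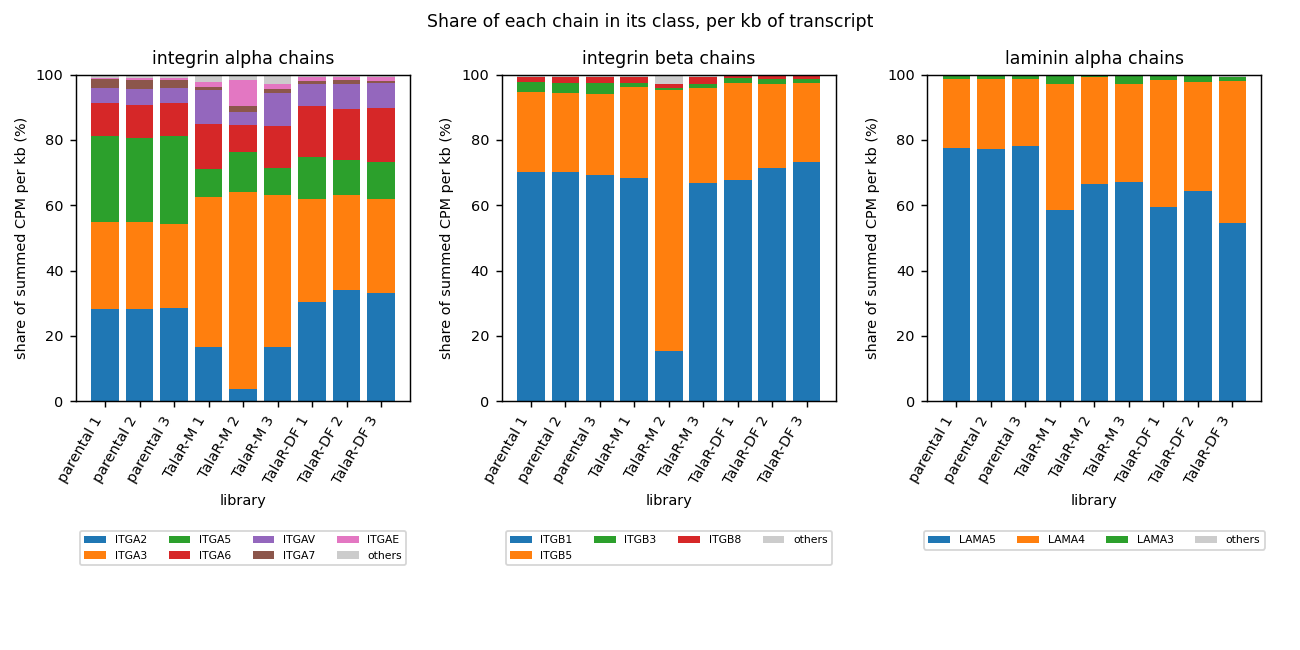
Share of each chain in the summed CPM per kb of transcript of its class (vertical axes, %), for integrin alpha, integrin beta and laminin alpha chains in the 9 libraries (bars), with the smallest chains grouped as others. The ITGA5 share was 26.4% in parental cells and at most 13.1% in resistant libraries, and the ITGB1 share was 15.5% in TalaR-M replicate 2 against 66.9% to 73.2% in the other libraries.

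Genes that work with these receptors were read from 4 lists. Their counts stand against 5.53% of all tested genes called higher and 7.72% lower in TalaR-M against parental cells, 2.25% and 7.49% in TalaR-DF against parental cells and 5.29% and 1.64% in TalaR-M against TalaR-DF cells. Without TalaR-M replicate 2 these shares were 6.78% and 7.07%, 2.73% and 8.63%, and 6.96% and 1.4%. The list medians stand against the medians over all tested genes given above.

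Of the other basement membrane components, 14 of 21 were tested, with 2 called higher and 2 lower in each comparison with parental cells. FBLN1 and FRAS1 rose in both resistant groups and SMOC1 fell in both. Without replicate 2, 3 were higher and 1 lower in TalaR-M cells, where NTN4, a netrin of basement membranes, joined at 2.03 (adjusted p = 5.33e-05) and COL4A6 left. FBLN1, a matrix glycoprotein that binds laminin, was at 0 in all parental libraries and stood at 3.52, 4.32 and 3.66 log2 CPM in TalaR-M and 2.14, 2.13 and 1.92 in TalaR-DF libraries. FRAS1, a protein that anchors epithelia to the underlying matrix, was likewise at 0 in parental cells and stood at 5.03, 2.20 and 5.25 in TalaR-M and 2.51, 3.11 and 2.62 in TalaR-DF libraries. SMOC1, a calcium-binding matrix protein, stood at 1.49 to 1.52 in parental libraries and at 0 in all resistant ones. SMOC1 was thus tested through the parental libraries only, and FBLN1 and FRAS1 through the resistant ones only. NID1, the nidogen that links laminin to collagen IV, fell in TalaR-DF cells, -2.65 (adjusted p = 0.027), from 5.40 to 5.57 in parental to 2.71 to 2.93 in TalaR-DF libraries. COL4A6, a collagen IV chain, was called lower in TalaR-M cells, -1.41 (adjusted p = 0.046), but not without replicate 2, at -0.84. In TalaR-M against TalaR-DF cells 1 of the 14 was higher, FBLN1, and 5 were without replicate 2 (COL18A1, FBLN1, FRAS1, NID1 and NTN4), with 0 lower. The list median was -0.53, -0.47 and 0.16 in the 3 comparisons, and 0.18, -0.47 and 0.62 without replicate 2.

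All 9 non-integrin laminin receptors and hemidesmosome genes were tested. BCAM, a laminin receptor that binds LAMA5, rose in TalaR-M cells by 1.48 (adjusted p = 0.00155), or 1.22 (adjusted p = 4.11e-08) without replicate 2. It stood at 6.12 to 6.29 log2 CPM in parental, 7.44 to 8.22 in TalaR-M and 6.36 to 6.51 in TalaR-DF libraries. SDC1, a heparan sulfate proteoglycan of epithelia, stood at 3.56 to 3.80, 4.61 to 4.82 and 2.41 to 2.64. SDC1 was called lower in TalaR-DF cells, -1.14 (adjusted p = 0.000937), and higher in TalaR-M cells, 1.04 (adjusted p = 0.00129), where it came to just under the fold threshold without replicate 2. Both genes were higher in TalaR-M than in TalaR-DF cells, with or without replicate 2, and the other 7 genes were called in no comparison. The list median was 0.36, 0.02 and 0.44, and 0.42, 0.02 and 0.32 without replicate 2.

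Of the integrin ligands, 19 of 23 were tested, with 3 higher and 4 lower in TalaR-M cells and 2 higher and 7 lower in TalaR-DF cells. THBS1, a matrix glycoprotein, was higher in both, from 5.81 to 5.89 log2 CPM in parental to 7.57 to 10.62 in TalaR-M and 8.29 to 8.42 in TalaR-DF libraries. The chains of type I collagen differed. COL1A2 stood at 7.86, 7.86 and 7.88 in parental, at 0 in all TalaR-M and at 3.90, 3.67 and 3.74 in TalaR-DF libraries, whereas COL1A1 stood at 6.51, 6.45 and 6.55, at 8.61, 8.13 and 8.67 and at 3.67, 3.96 and 3.83. The COL1A2 difference of -7.86 in TalaR-M cells is a bound set by the floor. SPP1, or osteopontin, a ligand of the ITGAV dimers, stood at 2.97 to 3.28 in parental, 0 in TalaR-M and 0.14 to 1.08 in TalaR-DF libraries. POSTN, or periostin, stood at 8.03 to 8.27 in TalaR-DF against 4.33 to 4.51 in parental libraries. The other calls were TGFBI higher and COL6A2 and ICAM1 lower in TalaR-M cells, and COL6A1, COL6A2, EDIL3 and MFGE8 lower in TalaR-DF cells. In TalaR-M against TalaR-DF cells 3 ligands were higher (COL1A1, FBN1 and MFGE8) and 2 lower (COL1A2 and POSTN). Without replicate 2 the counts were 7 higher and 4 lower in TalaR-M against parental, 2 and 10 in TalaR-DF against parental, and 9 and 2 in TalaR-M against TalaR-DF cells. COL3A1, a fibrillar collagen, and TNC, or tenascin C, then exceeded their parental level in TalaR-M cells, at 1.16 (adjusted p = 3.16e-07) and 1.01 (adjusted p = 5.83e-07), and also exceeded the TalaR-DF level, at 1.75 (adjusted p = 2.38e-08) and 1.67 (adjusted p = 2.2e-08). FBN1 and POSTN also joined as higher against parental cells in TalaR-M cells, FBN1, FN1 and ICAM1 as lower in TalaR-DF cells, and EDIL3, FN1, TGFBI and THBS1 as higher in TalaR-M than in TalaR-DF cells. The list median was -0.36, -1.11 and 0.67, and -0.26, -1.11 and 0.82 without replicate 2.

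Of the integrin activators and focal adhesion genes, 29 of 33 were tested, with 0 higher and 3 lower in each comparison with parental cells, a share near that of all tested genes. TNS1, a tensin that ties integrins to actin, stood at 5.61 to 5.71 log2 CPM in parental libraries and at most 0.71 in TalaR-M and 0.23 in TalaR-DF libraries. FERMT3, a kindlin that activates integrins in blood cells, stood at 3.30 to 3.43 in parental libraries and at most 0.74 in resistant ones. PXN, which encodes paxillin, was called lower in TalaR-M cells, -1.04 (adjusted p = 0.0279), but not without replicate 2, at -0.68. TGFB1I1, a paxillin relative, fell in TalaR-DF cells, -1.54 (adjusted p = 0.00164). TGFB1I1 and TNS4, another tensin, were higher in TalaR-M than in TalaR-DF cells, and without replicate 2 PARVA and TNS3 were too. TNS3 was also called higher against parental cells without replicate 2, where the counts were 1 higher and 2 lower. The list median was -0.29, -0.15 and -0.16, and 0.07, -0.15 and 0.01 without replicate 2.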

How the data were processed

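RNAseq libraries were made from poly(A) RNA with a stranded kit and sequenced as paired reads. The values that the authors deposited are log2 CPM with a prior count that was scaled by library size, and negative ones were replaced by 0. The values themselves showed this, since they gave whole reads for all values under 50 CPM (tolerance 0.05 reads). The submitters' processing notes name hg38, and the aligner, the counting and its strand setting are not given in the sources used here. Columns named for withdrawn cells were taken as TalaR-DF. Other cell lines and short treatments were not analysed here.

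Genes that exceeded 1 CPM in 3 or more libraries entered a test with limma 3.58.1 in R 4.3.3, in 1 model of the 3 groups with a mean-variance trend. Calls needed an adjusted p (Benjamini-Hochberg) under 0.05 and a log2 difference of 1 or more in either direction. The deposited log2 values were used without a further pseudocount. A fold on this scale understates the change of low genes. The test was checked on simulated data that had the same spread in every library and no length or GC trend. That check does not cover a library such as TalaR-M replicate 2. For 1 gene, an exact two-sided permutation test of 3 against 3 libraries has 0.1 as its smallest p and was not used. The members and the lists were chosen with earlier results of these data known. Values per library are given for each tested member called in any comparison, with or without TalaR-M replicate 2, and for ITGB1, ITGAV and LAMC1. The values of 1 tested member are not reported here, although counts and medians over the members hold it. The others are given by ranges. Genes of the 4 lists are named where called with all libraries or without TalaR-M replicate 2. Positions, lengths and GC content come from GENCODE 44, matched by symbol for 90.7% of genes, and promoters from RefSeq. The alternatives were added pseudocounts, filters, a median ratio scaling, no trend, a replicate block, 2-group fits, array weights, removal of a length and GC trend, other fold thresholds and leaving out each library. Figures were drawn with matplotlib 3.10.9.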

Additional observations from a re-analysis of the deposited data

How the results depend on the processing

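With the main settings 6, 7 and 4 of the 25 tested genes were called in the TalaR-M to parental, TalaR-DF to parental and TalaR-M to TalaR-DF comparisons, which keep this order below. Fits of only the 2 groups compared called 3 in the first and 2 in the third, an added pseudocount of 8 CPM called 4 in the second and 1 in the third, and removal of the length and GC trend called 8 in the third. When 1 library was left out, the counts ranged from 2 to 9, 6 to 10 and 2 to 6. Over all genes, the main settings called 690 higher and 963 lower in the first, 280 and 934 in the second and 660 and 204 in the third. An added pseudocount of 8 CPM called 711, 426 and 272 genes, and a fit of the 2 groups 484 in the third. Without a fold threshold 2938, 2315 and 1502 genes were called. A looser threshold of 1.5-fold, in place of 2-fold, called 2637, 2042 and 1369. Leaving out 1 library gave 1298 to 2045, 983 to 1417 and 578 to 1043. The cause of these differences was not tested.

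No consistent pairing of libraries by replicate number was seen. Same-numbered libraries correlated at -0.42 to 0.22 in their deviations from the group means, and 2 of 9 pairs exceeded 0.1. In both other groups at once, 0 of 9 libraries correlated best with their own number. Some did in a single other group, such as parental replicate 2 among the TalaR-DF libraries (0.15) and parental replicate 1 among the TalaR-M libraries (0.08). TalaR-M replicate 2 enters the TalaR-M mean behind these deviations. With the replicate block 6, 7 and 3 of the 25 genes and 1546, 1132 and 750 of all genes were called, and the ITGA10 difference between TalaR-M and TalaR-DF cells, 1.43, had an adjusted p of 0.0561 in limma.

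Directions turned only for differences that were not called. For TalaR-M against parental cells, ITGAV was at 0.44 with array weights, 0.24 with the length and GC trend removed and 0.46 without TalaR-M replicate 2, ITGB4 at 0.0494 with median ratio scaling and 0.17 with that trend removed, and ITGB8 at 0.0733 with array weights. For TalaR-M against TalaR-DF cells, ITGB1 was at 0.23 and ITGB3 at 0.32 with array weights. When 1 library was left out, the TalaR-M against parental differences ranged from -0.0615 to 0.1235 for ITGA3, -0.58 to 0.46 for ITGAV, -0.1605 to 0.0165 for ITGB4, -0.0181 to 0.1204 for ITGB5, -1.0449 to 0.0824 for ITGB8, -0.42 to 0.77 for LAMA3 and -0.0485 to 0.2809 for LAMA4. The TalaR-M against TalaR-DF differences ranged from -0.7286 to 0.0265 for ITGA6, -0.31 to 0.74 for ITGAV, -1.70 to 0.26 for ITGB1 and -1.40 to 0.37 for ITGB3. Of 1419 single-gene values under the alternatives, 1298 kept their direction and side of the threshold. Depth limits values near 1 CPM, 6.97 to 14.54 reads, which concerns ITGAX, ITGA2B and LAMA2.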
